A study of Mus musculus with 12 samples.

Results

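Spleen samples labelled as sorted natural killer (NK) cells were compared by bulk RNA sequencing between control (WT) mice and mice in which 1 gene was deleted conditionally (cKO). In every library B cell markers exceeded NK markers (values below), so the label NK cells is that of the series and not a finding from these data. The comparison rests on the 6 spleen libraries of a series of 12, 3 labelled WT and 3 labelled cKO, and the other 6 libraries came from tumors. The series asked how this gene bears on the antitumor function of NK cells and on interleukin-15 receptor signalling. The groups differ by genotype alone in the labels, which give no strain, age, sex, treatment or Cre driver for either group. Nor do they say that each library is a separate mouse, so the spread among the 3 libraries per group may be technical. The p-values here rest on that spread after it was moderated toward a trend over all genes. The targeted gene was not analysed here and could not serve as a check on the genotype.

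NK cells are innate lymphocytes that kill infected and transformed cells with perforin and granzymes and secrete interferon gamma. Their survival and division in the spleen depend on interleukin-15, which signals through the IL-2 receptor beta chain and the common gamma chain to the kinases JAK1 and JAK3 and the factor STAT5. The spleen also holds B cells, T cells, and red pulp macrophages that take up old red cells and recycle their iron.

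The 6 libraries held 9542329 to 13753737 counts each, and 18466 to 19500 genes had at least 1 count. Levels below are CPM, counts scaled to a common library total that is corrected for composition, and differences are log2 fold changes of cKO over WT with their standard errors. WT 3 and cKO 2, the shallowest libraries, lay at opposite ends of the first principal component, which held 31.5% of the variance. The labelled cell type was checked against marker lists. Genes of NK identity summed to 2123 to 2827 CPM in the 6 libraries, and 17 B cell markers summed to 6694 to 8113 CPM. Per length, the summed NK genes reached 1017 to 1411 RPKM (reads per kilobase, scaled to the library total) and the B cell markers 2526 to 3007 RPKM, so B cell transcripts outweighed NK transcripts on both scales in every library. The NK receptor gene Ncr1 averaged 107 and 88.0 RPKM in WT and cKO, beside 162 and 139.8 RPKM for Cd79a, part of the B cell receptor.

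A small set of genes differed between the libraries labelled WT and cKO. Of 14113 genes tested, 31 (0.22%) passed an adjusted p of 0.05 in edgeR's quasi-likelihood test with Benjamini-Hochberg adjustment. Of these, 29 rose in cKO (0.205% of genes tested) and 2 fell (0.0142%). At an unadjusted p under 0.05, 509 genes (3.61%) were higher and 400 (2.83%) lower, and the median over all genes was -0.01. Of those that rose, 5 were listed macrophage markers, 5 lay in 1 stretch of chromosome 7, 3 were on the lists of DNA replication and mitosis, 3 were processed pseudogenes of the ribosomal protein gene Rps15a and 2 were on the interferon list. The count depended on the fit: it was 69 with DESeq2, 5 in a fit of all 12 libraries, and 1 to 3 with limma-trend on the deposited RPKM values. It ranged from 18 to 33 when 1 library was left out, with 14 of the 31 genes called in each of those 6 fits.

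**Figure D1:**
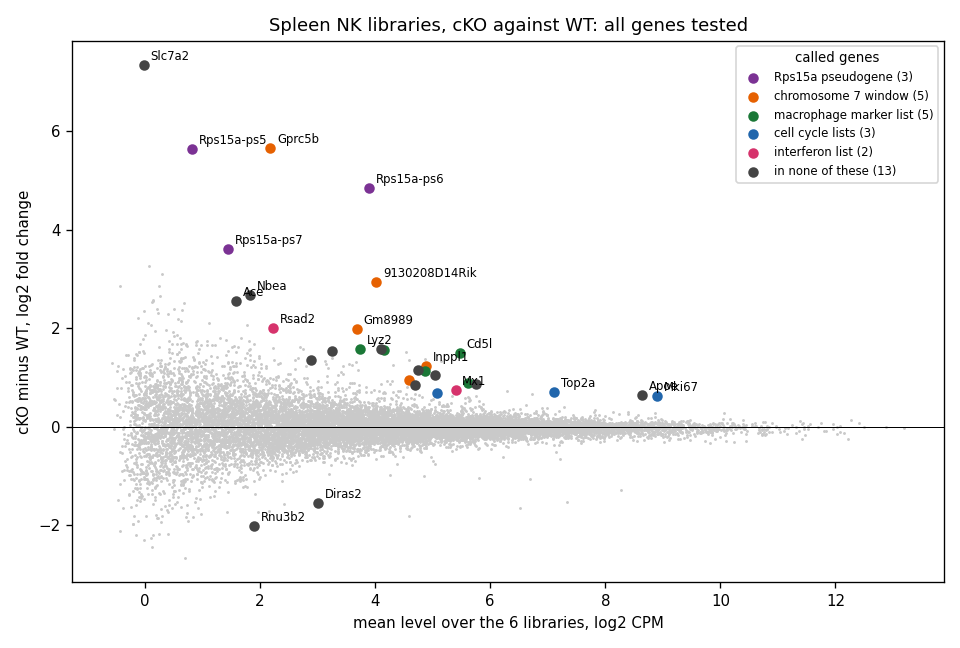
Log2 fold change of cKO over WT (vertical axis) against the mean level in log2 CPM (horizontal axis) for all 14113 genes tested in the 6 spleen libraries. Coloured points are the 31 called genes by list or place, 29 of them above 0; the fitted values of Slc7a2 and Rps15a-ps5 stand on 0 and 2 WT counts and depend on the prior count.

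Among the called genes were 3 processed pseudogenes of Rps15a, copies of the mature messenger RNA of a protein of the small ribosomal subunit that were inserted elsewhere in the genome. Rps15a-ps6 (chr11:6172644-6173036, within the span of Nudcd3 on the same strand) had 18, 14 and 4 counts in WT 1 to 3 and 280, 354 and 388 counts in cKO 1 to 3. That is 1.39, 1.08 and 0.388 CPM in WT 1 to 3 and 21.0, 36.4 and 28.1 CPM in cKO 1 to 3, a log2 difference of 4.84 ± 0.32 (adjusted p = 1.55e-07), and no cKO library came near a WT library. For Rps15a-ps7 (chr2:152185291-152185682) the tally was 8, 4 and 2 counts in WT 1 to 3 and 68, 48 and 58 counts in cKO 1 to 3, a log2 difference of 3.60 ± 0.53 (adjusted p = 0.00269). Rps15a-ps5 (chr5:105797321-105797713, within the span of Lrrc8d on the opposite strand) had 0, 2 and 0 counts in WT 1 to 3 and 20, 48 and 46 counts in cKO 1 to 3. With only 2 WT counts, its ratio of scaled counts was 56.0, with a counting interval (95%) of 15.2 to 468 (adjusted p = 0.00642), and its call was lost without cKO 2 or cKO 3 (0.0567 and 0.0613). That interval takes each count as independent and is too narrow if both mates of a read pair were counted. All 3 rows hold reads that can be shared with near-identical copies, so their counts are uncertain as measures of transcription from these loci.

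Rps15a itself (chr7:118104372-118116188) is the protein-coding gene and lies on chromosome 7. Levels of Rps15a were 141, 146 and 129.8 CPM in WT 1 to 3 and 79.3, 35.98 and 85.3 CPM in cKO 1 to 3. The groups did not overlap and cKO 2 was lowest, but the log2 difference of -1.05 ± 0.33 did not pass the test (adjusted p = 0.661). Each of the 3 called pseudogenes differs from the 393 bases of the Rps15a coding sequence at 5 positions, counted from 1 at the A of the start codon in the GENCODE vM21 transcript. Only T150C, with the base of Rps15a first, is common to all 3, and it is found in 7 of the 8 annotated pseudogenes of Rps15a. The stretch from position 121 to 180 shows how alike these loci are. Letters that differ from Rps15a are in capitals, and the C of T150C is the capital that the 3 pseudogenes have in common:
Rps15a: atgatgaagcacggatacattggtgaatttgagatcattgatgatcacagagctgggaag
Rps15a-ps5: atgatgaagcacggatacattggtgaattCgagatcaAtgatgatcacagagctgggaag
Rps15a-ps6: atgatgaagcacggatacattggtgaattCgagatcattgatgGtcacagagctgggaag
Rps15a-ps7: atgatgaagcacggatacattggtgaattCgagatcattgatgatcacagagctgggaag
Over the whole coding length each of the 3 is 98.7% identical to Rps15a. Of the other pseudogenes, Rps15a-ps3 (9 differences) had 2 counts in WT and 24 in cKO, and Rps15a-ps8 (36 differences, without T150C) had 2 and 4. The remaining 3, Rps15a-ps1, Rps15a-ps2 and Rps15a-ps4, had at most 14 counts in a group, too few to compare at this depth. Whether WT and cKO reads differ at position 150 was not tested, since the deposited tables hold no read sequences.

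**Figure D2:**
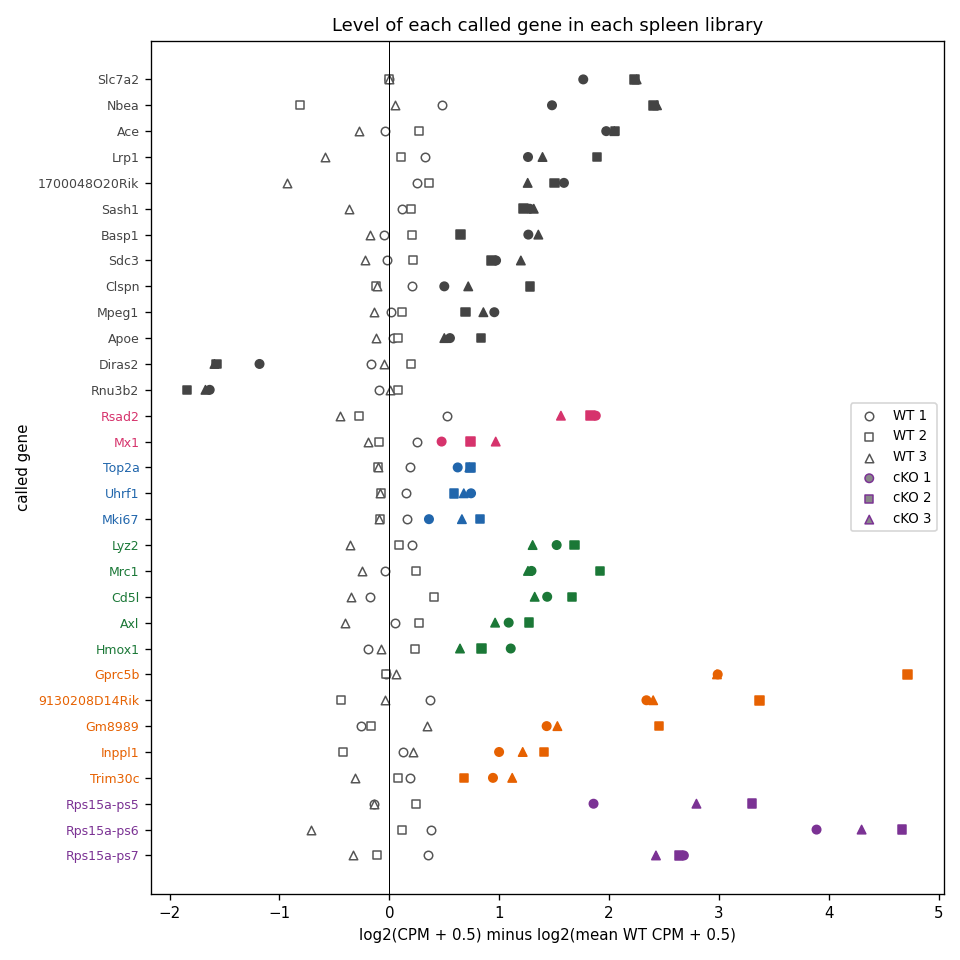
Level of each of the 31 called genes in each spleen library, as log2(CPM + 0.5) minus the same of the WT mean; open symbols are WT 1 to 3 and filled symbols cKO 1 to 3, coloured for interferon (pink), cell cycle (blue) and macrophage (green) lists, the chromosome 7 window (orange), Rps15a pseudogenes (purple) and other genes (grey). The cKO libraries lie wholly to the right for 29 genes and wholly to the left for Diras2 and Rnu3b2, and Rps15a-ps6 shows a wide gap between the groups on this scale. The genes were called by this same difference, so their separation adds no support of its own.

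Called genes were also gathered on chromosome 7, which held 8 of the 31 (25.8%) but 8.09% of the genes tested. The 20 Mb window with most called genes, chosen from the calls, starts at the first of them, and its called genes span chr7:101822632-118995211. It held 5 called genes of 144 tested (3.47%, beside 0.186% outside it), and 23 of the 144 had an unadjusted p under 0.05 (16.0%, beside 6.34% outside). The 5 were Inppl1, Trim30c, 9130208D14Rik, Gm8989 and Gprc5b, and all of them rose. The rest of the called genes of chromosome 7, Apoe, Axl and Mki67, start far outside the window, at chr7:19696109, chr7:25757273 and chr7:135689784.

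Gprc5b (chr7:118972047-118995211), an orphan receptor coupled to G proteins, was nearly silent in WT. Its levels were 0.154, 0.154 and 0.194 CPM in WT 1 to 3 and 4.798, 17.1 and 4.77 CPM in cKO 1 to 3, a log2 difference of 5.64 ± 0.65 (adjusted p = 0.000210), with cKO 2 far above the other cKO libraries. Iqck, which overlaps it on the opposite strand, had 3 counts in WT and 73 in cKO, and without strand reads of a shared stretch cannot be told apart. Inppl1 (chr7:101822632-101838229) encodes SHIP2, a phosphatase that removes the 5-phosphate of phosphatidylinositol trisphosphate. It stood at 19.1, 12.9 and 20.4 CPM in WT 1 to 3 and 35.4, 47.2 and 41.1 CPM in cKO 1 to 3 (log2 1.24 ± 0.18, adjusted p = 0.00198), with no overlap between the groups. Its neighbour on the opposite strand, Gm10602, overlaps its start and had 134 counts in WT and 301 in cKO. Inppl1 was the 1 gene called of 17 tested genes of phosphoinositide and SHIP-family phosphatases, beside 0.22% of all genes. The median of the 17 was 0.02, and Inpp5d, the SHIP1 gene of blood cells, was not called.

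The pseudogenes 9130208D14Rik (chr7:105824223-105831515) and Gm8989 (chr7:106323414-106330688) are unprocessed relatives of Gvin1, which encodes a very large GTPase induced by interferon. Levels of 9130208D14Rik were 4.94, 2.61 and 3.59 CPM in WT 1 to 3 and 20.8, 43.1 and 21.8 CPM in cKO 1 to 3 (log2 2.93 ± 0.30, adjusted p = 0.000184). Gm8989 had 4.25, 4.54 and 6.69 CPM in WT 1 to 3 and 14.8, 30.5 and 15.8 CPM in cKO 1 to 3 (log2 1.98 ± 0.29, adjusted p = 0.00214). In both, cKO 2 stood highest and cKO 1 and cKO 3 lay close together between it and WT. Their annotated transcripts are 89.5% and 96.0% identical to that of Gvin1 and 88.1% to each other, so reads can be split among these copies and the levels are uncertain. Gvin1 itself averaged 1534 ± 113 CPM (SD, n = 3) in the WT libraries and 1265 ± 91.7 CPM in the cKO libraries and had a log2 difference of -0.28 ± 0.08 (adjusted p = 0.325). Gm1966, another gene of the stretch, ran the other way, with 472, 442 and 407 CPM in WT 1 to 3 and 231, 48.9 and 261 CPM in cKO 1 to 3 (log2 -1.28 ± 0.66, adjusted p = 0.872).

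Trim30c (chr7:104382065-104400837) belongs to a cluster of tripartite motif genes, some of which restrict viruses. It rose, with 18.6, 17.1 and 13 CPM in WT 1 to 3 and 31.7, 26.3 and 35.9 CPM in cKO 1 to 3 (log2 0.94 ± 0.18, adjusted p = 0.0252). Without WT 2, WT 3, cKO 1 or cKO 3 its log2 difference was 0.81 to 0.98 and the adjusted p missed the threshold (0.117 to 0.193). Among 11 tested genes listed for the Trim5-Trim30 cluster, Trim30c was the 1 called, beside 0.22% of all genes. Of the 11, 3 were wholly above and 4 wholly below WT, against 6.36% and 5.96% of all genes. The list also holds Trim21 and Trim68, which start apart from the cluster at chr7:102557921 and chr7:102677582, and Trim68 was wholly above. The largest differences in the cluster were downward and uneven within cKO. Trim12a had 250.1, 240.2 and 233 CPM in WT 1 to 3 and 104, 21.8 and 124 CPM in cKO 1 to 3 (log2 -1.52 ± 0.66, adjusted p = 0.826). Trim5 had 142, 153 and 121.1 CPM in WT 1 to 3 and 60.9, 8.02 and 61.6 CPM in cKO 1 to 3 (log2 -1.65 ± 0.75, adjusted p = 0.836). In both genes cKO 1 and cKO 3 lay under WT 1 to 3 and cKO 2 lay far under cKO 1 and cKO 3.

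A pattern of 3 levels, with cKO 2 furthest from WT, was seen in some other genes of this stretch. By a rule set after these values were seen, genes were counted whose mean of cKO 1 and 3 differed from WT by at least 0.8 on the scale log2(CPM + 0.5) and whose cKO 2 level differed from that mean by at least 0.8 more in the same direction, with no overlap between groups and a mean of at least 2 CPM. There were 16 such genes among 14113 tested, and 8 of them lay in the window of 144 genes: 9130208D14Rik, Gprc5b, Gm8989 and Igsf6 upward, and Gm24846, Trim12a, Trim5 and Gm1966 downward. These 8 are not all separate loci. Gm24846 lies within the span of Trim5, and reads can be split between 9130208D14Rik and Gm8989. The called genes Trim30c and Inppl1 of the window are not among the 16: for Trim30c, cKO 2 was the cKO library nearest to WT. Of the 23 genes of the window with an unadjusted p under 0.05, cKO 2 was the cKO library furthest from WT in 15, and outside the window in 490 of 886. Outside it the 8 were Epb41l3, Pygl, Adgre4, Pla2g7, Tnfrsf21, Csf1r, Trf and Vcam1, all upward. For Rps15a, in the same window, the levels of cKO 1 and cKO 3 also lay between WT and cKO 2, without reaching the set size. The labels give no strain or cross, so the deletion cannot be told apart from a difference in genetic background between the mice, for the genes of this stretch and for Rps15a and its pseudogenes.

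**Figure D3:**
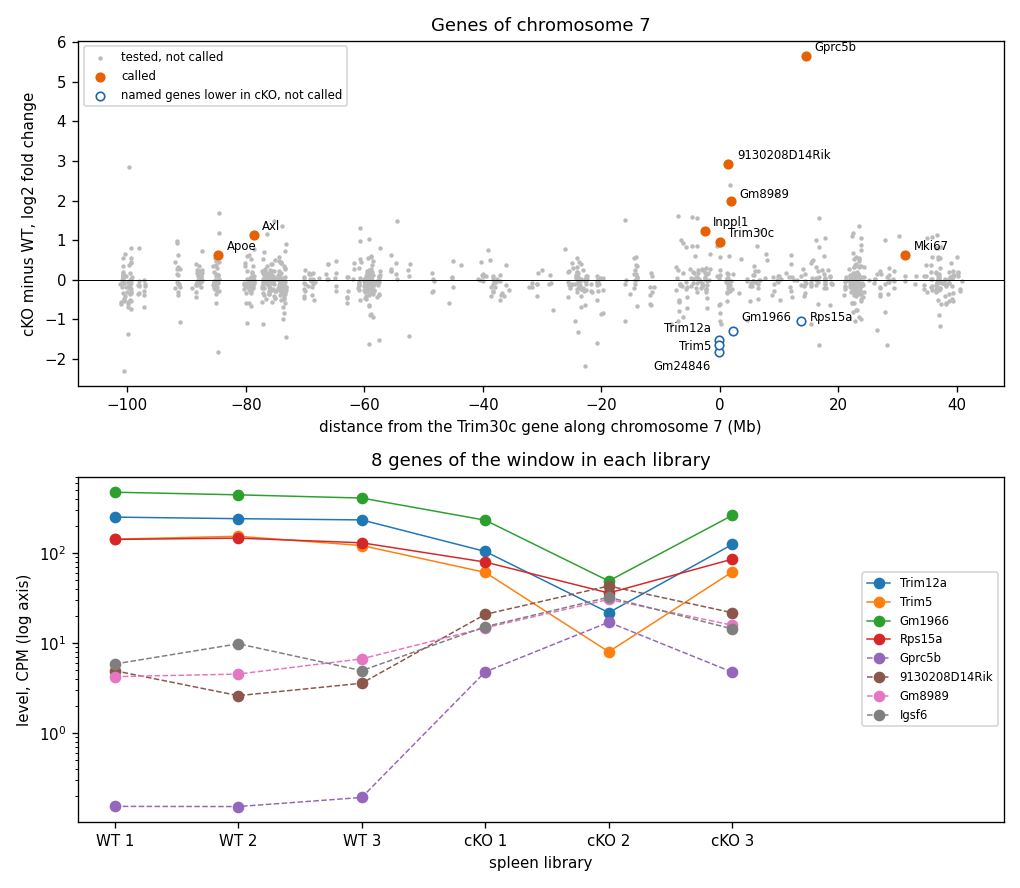
Top, log2 fold change of cKO over WT for tested genes of chromosome 7 against distance from Trim30c in Mb, with the 8 called genes filled. Bottom, CPM (log axis) of 8 genes of the window in each spleen library, joined by lines only to follow a gene. These 8 were chosen after their values were seen and all have cKO 2 furthest from WT, so their likeness is by choice. The called gene Trim30c of the window, not drawn in the lower panel, has cKO 2 nearest to WT among the cKO libraries.

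Macrophage genes made up another group of the called genes. Of 20 listed macrophage markers, all tested, 5 rose and none fell, with 17 wholly above WT, beside 0.205% called higher and 6.36% wholly above among all genes. They had a median log2 difference of 1.33 beside -0.01 over all genes. The list was drawn up with earlier results of these data known. Summed over the list, levels were 205, 240 and 136 CPM in WT 1 to 3 and 408, 570 and 386 CPM in cKO 1 to 3. More cells of a type and more RNA per cell cannot be told apart in bulk samples.

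Cd5l, which encodes a protein secreted by tissue macrophages, had 20.5, 30.8 and 18.0 CPM in WT 1 to 3 and 63.4, 74.3 and 58.6 CPM in cKO 1 to 3 (log2 1.49 ± 0.17, adjusted p = 0.000205). The mannose receptor gene Mrc1 had 8.65, 10.6 and 7.37 CPM in WT 1 to 3 and 22.5, 35.0 and 21.98 CPM in cKO 1 to 3 (log2 1.56 ± 0.22, adjusted p = 0.00198). Lyz2, the lysozyme of myeloid cells, had 7.72, 7.07 and 5.04 CPM in WT 1 to 3 and 19.9, 22.4 and 17.1 CPM in cKO 1 to 3 (log2 1.57 ± 0.22, adjusted p = 0.00198). In these 3 genes the lowest cKO library was above the highest WT library, and cKO 2 was highest. Axl, a receptor kinase for the uptake of dead cells, had 19.0, 22.1 and 13.7 CPM in WT 1 to 3 and 39.4, 44.8 and 36.1 CPM in cKO 1 to 3 (log2 1.13 ± 0.17, adjusted p = 0.00322). Hmox1, which degrades heme and is high in red pulp macrophages, had 30.03, 40.6 and 32.6 CPM in WT 1 to 3 and 74.6, 61.9 and 54.0 CPM in cKO 1 to 3 (log2 0.88 ± 0.14, adjusted p = 0.00642), and here cKO 1 was highest. Hmox1 lost its call when cKO 1 was left out (adjusted p = 0.0821), and the other 4 kept theirs in each of the 6 fits that left out 1 library.

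Of the 15 listed macrophage genes that were not called, 12 were wholly above WT, beside 6.36% of all genes. The complement genes C1qa, C1qb and C1qc had log2 differences of 1.19 ± 0.26, 1.40 ± 0.32 and 1.61 ± 0.38 (adjusted p = 0.0748, 0.115 and 0.126). Csf1r, whose product receives the growth signal that macrophages depend on, had 13.2, 16.5 and 5.92 CPM in WT 1 to 3 and 26.01, 51.3 and 26.5 CPM in cKO 1 to 3 (log2 1.52 ± 0.41, adjusted p = 0.491), with WT 3 lowest and cKO 2 highest. Adgre1, which encodes F4/80, had 7.72, 8.46 and 6.79 CPM in the WT libraries and 10.2, 8.94 and 12.9 CPM in the cKO libraries (log2 0.48 ± 0.24, adjusted p = 0.798). Spic, the factor that specifies red pulp macrophages, had a log2 difference of 0.93 ± 0.37 (adjusted p = 0.649). Marco, Cd68 and Timd4 overlapped between the groups, and Timd4, a marker of resident macrophages, was the 1 member with a negative value (-0.51 ± 0.72).

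Several called genes outside that list are known from macrophages among other cells. Apoe, the lipid carrier, had 318, 329 and 286 CPM in WT 1 to 3 and 456, 554 and 440.2 CPM in cKO 1 to 3 (log2 0.64 ± 0.09, adjusted p = 0.00206). Lrp1, an endocytic receptor that binds Apoe, had 10.8, 9.23 and 5.53 CPM in WT 1 to 3 and 21.1, 32.9 and 23.2 CPM in cKO 1 to 3 (log2 1.58 ± 0.24, adjusted p = 0.00312). Mpeg1, the pore-forming protein perforin-2 of phagocytes, had 18.4, 19.8 and 16.5 CPM in the WT libraries and 35.8, 29.8 and 33.4 CPM in the cKO libraries (log2 0.86 ± 0.15, adjusted p = 0.0174). Sdc3, a heparan sulfate proteoglycan of the cell surface, had 20.8, 24.6 and 18.0 CPM in the WT libraries and 42.0, 40.7 and 49.2 CPM in the cKO libraries (log2 1.05 ± 0.15, adjusted p = 0.00198). None of these 4 overlapped between the groups. The angiotensin-converting enzyme gene Ace averaged 0.810 ± 0.249 CPM (SD, n = 3) in the WT libraries and 4.83 ± 0.161 CPM in the cKO libraries (log2 2.55 ± 0.45, adjusted p = 0.0147). Slc7a2, a carrier of arginine and lysine, had no counts in WT and 60 in cKO, at least 19.7-fold higher when WT is set to a floor of 3 counts summed over its libraries (adjusted p = 0.0220). Sash1, a signalling scaffold, averaged 4.03 ± 0.900 CPM (SD, n = 3) in the WT libraries and 10.4 ± 0.352 CPM in the cKO libraries (log2 1.36 ± 0.27, adjusted p = 0.0426). Calls of Slc7a2 and Sash1 were lost in each of the 6 fits without 1 library (adjusted p = 0.0889 to 0.190 and 0.0888 to 0.193), that of Mpeg1 in all but the fit without cKO 2 (0.0636 to 0.140), and that of Ace without WT 1, WT 3, cKO 1 or cKO 3 (0.0630 to 0.101).

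Markers of other cell types differed less in their sums. Summed erythroid markers were 94.0 to 120 CPM in WT and 130 to 136 CPM in cKO, and megakaryocyte and platelet markers 4.07 to 6.38 CPM and 8.17 to 8.97 CPM, without overlap. The hemoglobin gene Hbb-bs had 11.4, 17.8 and 6.79 CPM in the WT libraries and 18.4, 28.4 and 19.5 CPM in the cKO libraries (log2 0.86 ± 0.28, adjusted p = 0.477). Hbb-bs lies in the chromosome 7 window, at chr7:103826534-103828096, so the limit given for genes of that stretch holds for it too. Neutrophil markers were 3.20 to 13.5 CPM in WT and 3.83 to 33.0 CPM in cKO, highest in cKO 2, and Ly6g had no count in any of the 6 libraries. Alpha-beta T cell markers were 225 to 304 CPM in WT and 277 to 382 CPM in cKO. Dendritic, plasma cell, ILC1 and stromal sums overlapped between the groups. Gata1 of erythroid cells, Ppbp of platelets, Siglech of plasmacytoid dendritic cells, and Lum and Lyve1 of stroma and endothelium also had no counts. The part of other cell types in the called genes was not tested.

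**Figure D4:**
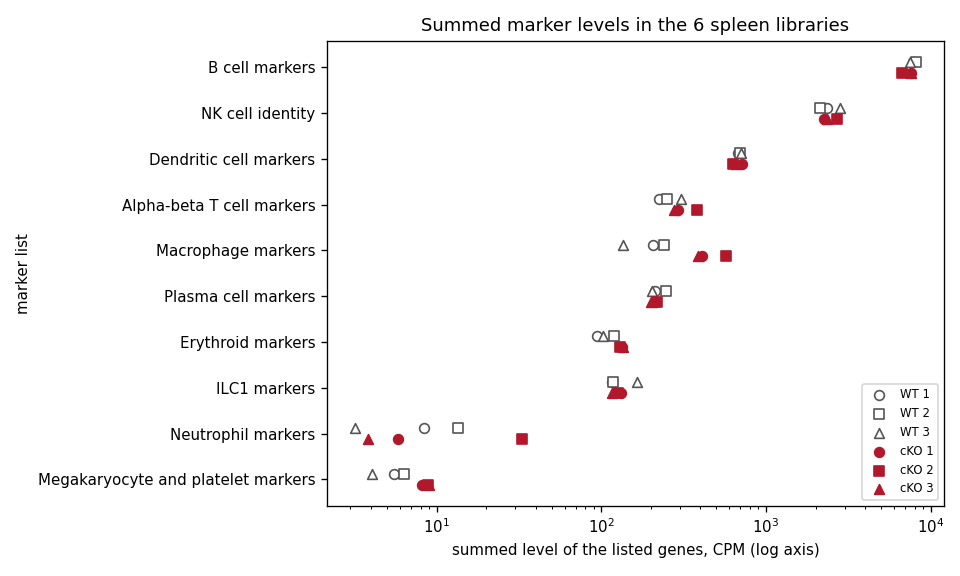
Summed level of 10 marker lists in the 6 spleen libraries, in CPM on a log axis, with open symbols for WT 1 to 3 and filled symbols for cKO 1 to 3. Macrophage markers (136 to 240 CPM in WT, 386 to 570 CPM in cKO), erythroid markers and platelet markers do not overlap between the groups, and B cell markers are the highest list in every library.

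A few listed genes of the cell cycle rose in cKO. Of 23 genes of G2 and mitosis, 2 rose (0.205% of all genes tested), 22 were positive and 11 were wholly above WT (6.36% of all genes), with a median of 0.63 beside -0.01 over all genes. Of 22 genes of DNA replication and S phase, 1 rose, 20 were positive and 9 were wholly above, with a median of 0.31, beside the same shares of all genes. Summed levels were 818, 711 and 691 CPM in WT 1 to 3 and 970, 1256 and 1132 CPM in cKO 1 to 3 for mitosis. For S phase they were 1114 to 1169 CPM in WT and 1360 to 1377 CPM in cKO.

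Top2a, the topoisomerase that untangles chromosomes before they part, had 119.7, 97.9 and 98.2 CPM in WT 1 to 3 and 162, 176 and 175 CPM in cKO 1 to 3 (log2 0.70 ± 0.10, adjusted p = 0.00198). Mki67, which encodes the proliferation marker Ki-67, had 421, 354 and 352 CPM in WT 1 to 3 and 482, 666 and 594 CPM in cKO 1 to 3 (log2 0.63 ± 0.10, adjusted p = 0.00804). Uhrf1, which carries DNA methylation through replication, had 28.7, 24.4 and 24.3 CPM in WT 1 to 3 and 43.6, 39.1 and 41.6 CPM in cKO 1 to 3 (log2 0.68 ± 0.13, adjusted p = 0.0407). The groups did not overlap in any of these 3, and WT 1 was the highest WT library in each. Clspn, which encodes the replication checkpoint protein claspin and was on neither list, had 43.9, 34.9 and 35.1 CPM in WT 1 to 3 and 53.9, 92.8 and 62.8 CPM in cKO 1 to 3 (log2 0.87 ± 0.17, adjusted p = 0.0426). Top2a kept its call in each of the 6 fits without 1 library. Mki67 lost its call without WT 2, WT 3 or cKO 3 (adjusted p = 0.0617 to 0.118), Clspn without those or cKO 2 (0.0617 to 0.314), and Uhrf1 in all but the fit without WT 1 (0.0572 to 0.215). Beside them, Mcm3 of the replicative helicase had 108, 104 and 99.7 CPM in the WT libraries and 137, 133 and 135 CPM in the cKO libraries (log2 0.38 ± 0.09, adjusted p = 0.112), and Birc5, or survivin, had a log2 difference of 1.23 ± 0.31 (adjusted p = 0.173). Chaf1a, which deposits histones behind the fork, was among the nearest genes short of the threshold, at 0.55 ± 0.12 (adjusted p = 0.0748).

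Promoters of these genes were searched for motifs of the cell cycle in the 250 bases before the start site, on both strands, in the RefSeq promoter table of GRCm38.p6. That table held 22 of the 31 called genes. The E2F motif TTTNNCGC was in 4.28% of 32851 promoters and in those of 6 of 18 S-phase genes (33.3%). The cell cycle homology region TTTGAA was in 16.0% of all promoters and in those of 7 of 19 mitosis genes (36.8%). The share over all is per promoter, while a listed gene counted if any of its promoters held a match. A gene with several starts thus has more chances, and the shares are not like measures. Sites of different motifs could overlap, and a match is a description of the letters only. Stretches around the matches of 3 called genes are shown with the motif in capitals, Mki67 with both of its matches. Top2a has another match 23 bases before its start, and Uhrf1 another 185 bases before a different start, neither shown. Of called genes on neither cell cycle list, Inppl1, Apoe, Lrp1 and Basp1 held the E2F motif and Mrc1 and Apoe held TTTGAA. They lie at chr17:56303256-56303313 on the plus strand for Uhrf1, chr7:135716465-135716520 on the minus strand for Mki67 and chr11:99024338-99024393 on the minus strand for Top2a:
Uhrf1: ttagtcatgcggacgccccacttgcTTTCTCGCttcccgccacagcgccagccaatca
Mki67: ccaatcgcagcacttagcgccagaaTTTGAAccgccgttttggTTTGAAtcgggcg
Top2a: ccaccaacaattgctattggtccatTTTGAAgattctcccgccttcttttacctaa

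Genes induced by interferon leaned upward. Of 37 tested, 2 rose, 34 were positive, 13 were wholly above WT and none wholly below, with a median of 0.46. Over all genes 0.205% were called higher, 6.36% were wholly above and 5.96% wholly below. At an unadjusted p under 0.05, 21 of the 37 were higher and none lower, beside 3.61% and 2.83% of all genes. Rsad2, which encodes the antiviral enzyme viperin, had 2.78, 1.38 and 1.16 CPM in WT 1 to 3 and 7.87, 7.61 and 6.22 CPM in cKO 1 to 3 (log2 2.01 ± 0.38, adjusted p = 0.0267). Mx1, an antiviral GTPase of the dynamin family, had 37.4, 29.2 and 27.3 CPM in WT 1 to 3 and 43.7, 52.5 and 61.7 CPM in cKO 1 to 3 (log2 0.75 ± 0.15, adjusted p = 0.0426). Neither gene overlapped between the groups. Rsad2 kept its call only in the fit without WT 1 (adjusted p = 0.0888 to 0.157 in the other 5), and Mx1 lost its call without WT 2, WT 3, cKO 2 or cKO 3 (0.124 to 0.318). Ifit1, a sensor of foreign RNA, had 1.39, 3.23 and 1.55 CPM in the WT libraries and 4.798, 5.55 and 6.07 CPM in the cKO libraries (log2 1.40 ± 0.40, adjusted p = 0.331). Isg15, a modifier joined to proteins like ubiquitin, had 8.42, 8.30 and 9.51 CPM in the WT libraries and 12.3, 9.25 and 17.1 CPM in the cKO libraries (log2 0.57 ± 0.24, adjusted p = 0.692), and cKO 2 lay among the WT libraries. Irf7, a factor that drives interferon genes, also had its lowest cKO value in cKO 2. Summed over the list, cKO 2 (1936 CPM) was below WT 1 (2047 CPM), while cKO 1 and cKO 3 reached 2312 and 2537 CPM.

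The interferon-stimulated response element GAAANNGAA was in the 250 bases before the start in 7.13% of 32851 promoters and in those of 17 of 30 listed genes with an entry (56.7%). Here too the first share is per promoter and the second per gene with a match in any of its promoters. Mx1 had no entry, and Apoe, a called gene outside the list, also held a match. The match of Rsad2 is on the strand opposite to its gene, at chr12:26456538-26456596 (printed along the minus strand, that of the gene), and is in capitals:
Rsad2: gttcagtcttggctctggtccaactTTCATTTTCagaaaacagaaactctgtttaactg

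The 2 genes that fell were of other kinds. Diras2 (chr13:52504375-52530836), a small GTPase of the Ras family, had 10.3, 13.5 and 11.3 CPM in WT 1 to 3 and 4.87, 3.60 and 3.54 CPM in cKO 1 to 3 (log2 -1.54 ± 0.27, adjusted p = 0.0125). Rnu3b2 (chr11:87471368-87471583), a copy of the U3 small nucleolar RNA that guides cleavage of ribosomal RNA, had 5.33, 6.07 and 5.72 CPM in WT 1 to 3 and 1.499, 1.23 and 1.45 CPM in cKO 1 to 3 (log2 -2.02 ± 0.38, adjusted p = 0.0252). The groups were well apart in both, but U3 has near-identical copies, so the Rnu3b2 count is uncertain. Its call was lost in each of the 6 fits without 1 library (adjusted p = 0.0732 to 0.132), and that of Diras2 without WT 2 and without cKO 3 (0.118 and 0.104). Among genes that rose, Nbea, which encodes neurobeachin, a protein of vesicle traffic, averaged 0.915 ± 0.582 CPM (SD, n = 3) in the WT libraries and 5.87 ± 2.10 CPM in the cKO libraries (log2 2.67 ± 0.51, adjusted p = 0.0267). Basp1, a membrane-bound signalling protein, averaged 16.6 ± 2.34 CPM (SD, n = 3) in the WT libraries and 36.8 ± 9.18 CPM in the cKO libraries (log2 1.15 ± 0.19, adjusted p = 0.00642). The long noncoding RNA 1700048O20Rik had 5.71, 6.23 and 2.23 CPM in the WT libraries and 15.2, 14.3 and 12.01 CPM in the cKO libraries (log2 1.53 ± 0.30, adjusted p = 0.0407). A second row of the table overlaps it on the same strand and had 75 counts in WT and 201 in cKO, so reads of the pair can be shared. Calls were lost for Nbea without WT 2, WT 3, cKO 2 or cKO 3 (adjusted p = 0.102 to 0.193), for Basp1 without cKO 1 or cKO 3 (0.0751 and 0.0918) and for 1700048O20Rik in each of the 6 fits (0.0674 to 0.188).

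No gene of NK identity was called, beside 0.22% of all genes, so the lack of a call in a short list says little. Of 21 tested, 8 were positive and 13 negative, 1 was wholly above WT (6.36% of all genes), and the median was -0.02. Ncr1, which encodes NKp46, had 130.3, 158 and 209 CPM in the WT libraries and 154, 93.1 and 157 CPM in the cKO libraries (log2 -0.29 ± 0.27, adjusted p = 0.916), with WT 3 highest and cKO 2 lowest. Klrb1c, which encodes NK1.1, had 119.5, 115 and 158 CPM in the WT libraries and 121.2, 175 and 115 CPM in the cKO libraries (log2 0.06 ± 0.16, adjusted p = 0.978). The lineage factors Eomes and Tbx21 had log2 differences of -0.14 ± 0.12 and 0.07 ± 0.12. Ly49 receptor genes had a median of -0.25 over 11 tested, with none called and none apart between the groups. Among all genes, 6.36% were wholly above and 5.96% wholly below WT. These near-identical Ly49 genes can share reads.

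Of 26 genes of the interleukin-15 receptor and JAK-STAT5 pathway none was called, beside 0.22% of all genes, and the median was 0.01. Il2rb, the beta chain, had 202, 186 and 248 CPM in the WT libraries and 222, 217 and 186 CPM in the cKO libraries (log2 -0.02 ± 0.10, adjusted p = 0.982). For the common gamma chain gene Il2rg the log2 difference was 0.03 ± 0.09, and for its kinase partner Jak3 it was 0.24 ± 0.14. Il15ra, which presents the cytokine, was low, at 6.10, 3.15 and 4.85 CPM in the WT libraries and 2.77, 1.13 and 4.27 CPM in the cKO libraries (log2 -0.76 ± 0.44, adjusted p = 0.854). Stat5a and Stat5b had 0.00 ± 0.16 and -0.06 ± 0.10, and the feedback inhibitor Cish, a STAT5 target, -0.02 ± 0.42. Nfil3, a factor needed for NK development, had the lowest p of the list, with 8.49, 18.8 and 18.0 CPM in the WT libraries and 9.82, 9.46 and 7.23 CPM in the cKO libraries (log2 -0.77 ± 0.27, adjusted p = 0.543), and WT 1 lay among the cKO libraries. A p that misses the threshold does not show that levels were equal; for Il2rb the standard error of 0.10 bounds what could be seen, and for Il15ra it was 0.44.

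Cytotoxic granule genes also gave no call among 18, beside 0.22% of all genes called, with a median of 0.11. Granzyme B, Gzmb, had 88.8, 71.1 and 84.6 CPM in WT 1 to 3 and 115, 172 and 104 CPM in cKO 1 to 3 (log2 0.67 ± 0.16, adjusted p = 0.247), wholly above WT. Gzma and Prf1, for granzyme A and perforin, had log2 differences of 0.11 ± 0.20 and 0.16 ± 0.12 with overlapping libraries. Itga2, the integrin CD49b used to mark NK cells, had 33.6, 29.8 and 30.1 CPM in the WT libraries and 35.7, 45.5 and 37.9 CPM in the cKO libraries (log2 0.35 ± 0.14, adjusted p = 0.641) and was the 1 identity gene wholly above WT. Havcr2, the checkpoint receptor TIM-3, which macrophages express too, had the lowest p among higher genes that were not called, with 1.78, 0.615 and 1.36 CPM in the WT libraries and 5.55, 5.55 and 4.70 CPM in the cKO libraries (log2 2.07 ± 0.44, adjusted p = 0.0695).

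**Figure D5:**
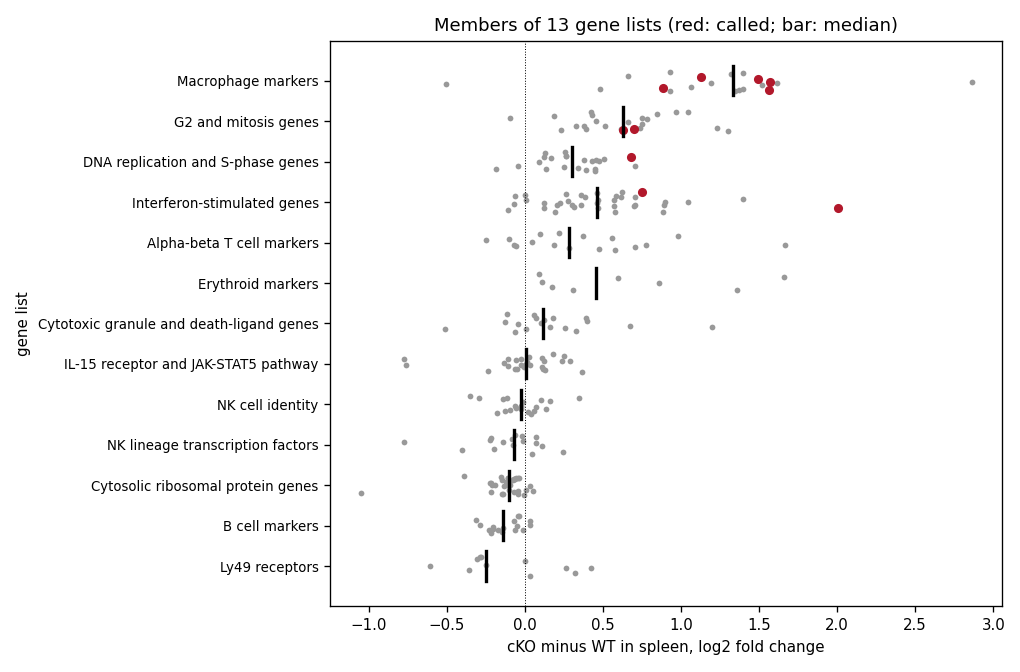
Log2 fold change of cKO over WT in spleen for the tested members of 13 gene lists, 1 point per gene, red where called, with the list median as a bar; vertical jitter has no meaning. Medians run from 1.33 for macrophage markers down to -0.25 for Ly49 receptors, and the red points lie in the macrophage, mitosis, S-phase and interferon lists.

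Lists of other lymphocytes held no called gene, beside 0.22% of all genes. B cell markers leaned down, with 15 of 17 negative, a median of -0.14 and 2 wholly below WT, beside 5.96% of all genes. Cd79a had 226, 246 and 242 CPM in the WT libraries and 221, 173 and 213 CPM in the cKO libraries (log2 -0.23 ± 0.09, adjusted p = 0.645). Alpha-beta T cell markers leaned up, with 13 of 17 positive, 5 wholly above (6.36% of all genes) and a median of 0.28. Cd3e, a CD3 chain, had 14.4, 13.8 and 17.1 CPM in the WT libraries and 19.5, 36.5 and 18.1 CPM in the cKO libraries (log2 0.71 ± 0.23, adjusted p = 0.477), and cKO 2 was highest. Tcrg-C2, a constant segment of the gamma T cell receptor, had 2.55, 3.38 and 2.62 CPM in the WT libraries and 7.05, 7.402 and 6.58 CPM in the cKO libraries (log2 1.29 ± 0.32, adjusted p = 0.173). Of 34 cytosolic ribosomal protein genes 31 were negative, beside 7204 of all 14113 genes tested. None of the 34 was called, and their median was -0.10.

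The genes nearest the threshold without passing it included Gpr183, a receptor for oxysterols that guides cells within lymphoid tissue, with 34.05, 45.1 and 44.6 CPM in the WT libraries and 22.5, 29.3 and 22.2 CPM in the cKO libraries (log2 -0.75 ± 0.16, adjusted p = 0.0618). Rps27, a ribosomal protein gene outside the list, had 149.9, 178 and 169 CPM in the WT libraries and 115, 97.2 and 137 CPM in the cKO libraries (log2 -0.51 ± 0.11, adjusted p = 0.0748). Both were wholly below WT. Rassf3, Gm26944 and Ucp2 followed among lower genes, with log2 differences of -0.38 ± 0.09, -0.60 ± 0.15 and -0.31 ± 0.08. Among higher genes, Cfp, which encodes properdin of the complement system, and Coa4, which lies on chromosome 7 just outside the window, had 1.15 ± 0.25 and 1.57 ± 0.34 (adjusted p = 0.0748 and 0.0748).

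The spleen genes were set beside the tumor libraries of the same genotypes in a fit of all 12 libraries. In that fit 38% of 16831 genes passed for cKO against WT in tumor. For spleen only 5 genes passed in it, and 3 of these were among the 31 called from the spleen libraries alone. Of the 31 genes, 9 also passed in tumor in the same direction and 11 in the opposite direction. The 38% covers both directions, and no share by direction was taken over all genes, so these counts have no like background. The 9 included the cell cycle genes Top2a, Mki67, Uhrf1 and Clspn, whose log2 differences in tumor were 1.95, 1.88, 1.80 and 2.10, and also Rps15a-ps6 (3.16), Rps15a-ps7 (3.45), Mx1 (0.69), 1700048O20Rik (1.94) and Diras2 (-3.10). All 11 that went the other way are macrophage-list genes or the genes described beside them: Mrc1, Lyz2, Axl, Hmox1, Apoe, Lrp1, Mpeg1, Sdc3, Ace, Slc7a2 and Sash1. Mrc1 had a log2 difference of -3.97 and Apoe of -2.84 in tumor. Cd5l, also a called macrophage-list gene, had -0.12 there and did not pass (adjusted p = 0.926), at 4.89 and 4.81 CPM in tumor WT and cKO. The called genes of the chromosome 7 window did not pass in tumor, where Inppl1 had 0.09, Trim30c -0.31, 9130208D14Rik -0.19, Gm8989 0.12 and Gprc5b -1.40. Inppl1 averaged 52.4 and 55.9 CPM in tumor WT and cKO, but the others were low there. Trim30c averaged 3.99 and 3.24 CPM, 9130208D14Rik 2.06 and 1.84 CPM, Gm8989 1.41 and 1.55 CPM, and Gprc5b 3.23 and 1.24 CPM. A lack of a call for these low genes does not show a lack of effect. The difference between the tissues itself passed for 22 of the 31 genes, beside 18.3% of all genes. Since the 31 were picked by their effect in the same spleen libraries, the 2 shares are not a like comparison.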

How the data were processed

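RNA of sorted mouse NK cells was extracted with TRIzol, per the labels. Reads were aligned to mm10 with TopHat2 2.0.6, per the submitters' processing notes. Which program counted them, and with which strand setting, is not given in the sources used here. For 33100 genes the authors deposited counts (whole numbers, not normalized) and RPKM values, which matched those computed from the counts within a relative 0.001 in 100% of nonzero cases. Of counts from 1 to 49, 70.3% to 72.8% were even in the spleen libraries, as when both mates are counted.

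Counts of the 6 spleen libraries were fitted in R 4.3.3 with edgeR 4.0.16: filterByExpr, TMM factors, robust quasi-likelihood F-test (2-sided, 4 residual degrees of freedom, common dispersion 0.0311), Benjamini-Hochberg adjustment over all genes tested and a threshold of 0.05. Spread was moderated across genes, with a median of 14.3 prior degrees of freedom beside the 4 residual ones. The fit was tested on simulated counts. Alternatives used DESeq2 1.42.0, limma 3.58.1 with pseudocounts of 0.1 and 1, other filters and factors, a replicate block and left-out libraries. Floors of 3 counts and exact intervals cover counting error only. They take each count as independent, so they understate that error if both mates were counted. No library pair was a duplicate. Named genes are all genes called, the 5 of lowest p in each direction not called, and list members that were called, anchors or of low p; Gvin1, Gm1966 and the pseudogenes of Rps15a were added as copies, and others of the chromosome 7 stretch after their values were seen. Members and lists were chosen with earlier results of these data known. Of tested symbols, 13698 were in GENCODE vM21 and 13665 overlapped its position. The targeted gene is not reported here.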

Additional observations from a re-analysis of the deposited data

Results flagged for a closer look

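For 22 of the 31 genes called in spleen the effect of the genotype differed between tumor and spleen, by the interaction term of edgeR's quasi-likelihood fit over all 12 libraries at an adjusted p of 0.05. Because the 31 were picked by their effect in the same spleen libraries, a high share that differs is favoured by that choice. The values below are log2 effects in tumor minus those in spleen. For 4 genes of the cell cycle the difference was positive: Top2a 1.25, Mki67 1.26, Uhrf1 1.12 and Clspn 1.22. For the others it was negative. Macrophage-list genes gave -5.53 for Mrc1, -3.36 for Lyz2, -2.49 for Axl and -2.74 for Hmox1. Cd5l, called in spleen and also on that list, is not among the 22, with -1.62 ± 1.08 (adjusted p = 0.332). Apoe gave -3.48, Lrp1 -3.25, Sdc3 -2.77, Mpeg1 -2.74, Ace -4.65 and Sash1 -3.24. Slc7a2, with no counts in spleen WT, gave a fitted -11.2, which depends on the prior count. In the chromosome 7 window the values were -7.07 for Gprc5b, -3.13 for 9130208D14Rik, -1.86 for Gm8989 and -1.15 for Inppl1. Rps15a-ps5 gave -5.15, Nbea -4.09 and Rsad2 -1.92.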

How the results depend on the processing

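The 31 called genes (29 higher, 2 lower) became 69 (59 and 10) with DESeq2, 101 (82 and 19) without a filter on low counts, and 5 (5 and 0) in a fit of all 12 libraries. Limma-trend called 1 (0 and 1) on log2(RPKM + 0.1) and 3 (2 and 1) on log2(RPKM + 1). With a replicate block there were 55 (51 and 4). Deviations of same-numbered libraries from their group means correlated at -0.02, 0.01 and 0.03. With 3 libraries per group these values cannot decide whether the numbers pair the samples, and the labels do not say. Leaving out 1 library gave 18 to 33 called genes, 17 to 26 higher and 0 to 7 lower. Leaving out WT 3 and cKO 2 together, chosen after the data were seen, gave 43 (32 and 11), 22 of them among the 31. Other factors, a mean of at least 1 CPM, and halved counts gave 29 to 31. All 31 genes kept their sign in each of the 17 alternatives that tested them, and none was called in every one. Of 578 list medians over these alternatives, 36 moved by more than the spread allowed. Depth limits the low genes: 1 count was worth 0.0723 to 0.103 CPM, and Slc7a2 and Rps15a-ps5 rest on 0 and 2 counts in WT. The cause of each change was not tested.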
